A study of Mus musculus with 15 samples.

Results

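The genes described here are 10 actin and contractile genes, most of them of the smooth muscle contractile programme, measured in induced pluripotent stem (iPS) lines. The 10 genes are Tagln, Acta2, Cnn1, Cnn2, Myl9, Tpm1, Tpm2, Actg2, Acta1 and Cald1. They are 10 of 18193 genes and are read by 22 of 45037 probe sets, a probe set being the group of array probes that measures a transcript. The members were selected on their measured array signal, since several of them stay raised in the iPS line IP14D-1, so every value of these 10 genes that involves IP14D-1 is given as a description with no test. They are tested in the comparisons that hold no array of IP14D-1, and genes of the other lists are tested in all comparisons.

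The study hybridised total RNA of mouse cells to 15 Affymetrix arrays, with 3 biological replicates for each of 5 groups. MEF are the mouse embryonic fibroblasts that the submitters used to make iPS cells, of the B6D2F1 background. CL11 is an embryonic stem (ES) cell line, IP14D-1 and IP20D-3 are iPS lines, and these 3 lines are also of the B6D2F1 background. IP14D-101 is an iPS line of the background C57x129S2, which differs from that of the MEF samples, so line and background cannot be told apart for it. Each ES or iPS group is 1 line, and its 3 arrays show the spread within that line and not between lines. All ES and iPS cells were grown with leukaemia inhibitory factor (LIF) on a feeder layer of fibroblasts stopped from dividing with mitomycin C, in medium that held either fetal bovine serum or knockout serum replacement. Which of these each line had is not labelled. The pelleted cells can therefore hold RNA of feeder fibroblasts.

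Smooth muscle cells contract when myosin pulls on filaments of actin, and the proteins of this set build or steer that machinery. Acta2, Actg2 and Acta1 are actins. Myl9 is a light chain of myosin, Tpm1 and Tpm2 are tropomyosins that wind along actin filaments, and Tagln, Cnn1, Cnn2 and Cald1 bind to those filaments. Fibroblasts in culture also make stress fibres with many of the same proteins, and the genes are known targets of serum response factor (Srf) with its partners of the myocardin family. Srf binds a short element called the CArG box.

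The promoter sequences are shown because these genes are known targets of Srf, so a share of CArG boxes above that of all windows was likely beforehand. Whether the matches bear on the differences between the lines was not tested. RefSeq promoter windows (GRCm38.p6, 250 bases before to 50 bases after the annotated start) were found for 8 of the 10 genes in 9 windows. Tagln and Actg2 were not among them. The CArG box was searched as CC, then 6 letters that are A or T, then GG, which reads the same way on both strands, and also in a form with 1 C or G among those 6 letters. The CArG box itself was in 3 of the 9 windows, those of Cnn2, Myl9 and Acta1, and in 1.63% of all 32851 windows of that length. With either form counted, Acta2 joined them to make 4 of the 9 windows, against 9.98% of all windows. The 250 bases before the start are given for these 4 genes on the gene's strand, with every match in capitals.
Acta2, chr19:34255374-34255623 on the minus strand: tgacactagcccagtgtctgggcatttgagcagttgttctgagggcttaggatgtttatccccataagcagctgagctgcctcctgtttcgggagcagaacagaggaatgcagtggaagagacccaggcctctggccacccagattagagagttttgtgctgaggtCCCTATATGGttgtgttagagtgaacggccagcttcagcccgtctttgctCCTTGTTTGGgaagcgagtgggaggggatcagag
Cnn2, chr10:79988350-79988599 on the plus strand: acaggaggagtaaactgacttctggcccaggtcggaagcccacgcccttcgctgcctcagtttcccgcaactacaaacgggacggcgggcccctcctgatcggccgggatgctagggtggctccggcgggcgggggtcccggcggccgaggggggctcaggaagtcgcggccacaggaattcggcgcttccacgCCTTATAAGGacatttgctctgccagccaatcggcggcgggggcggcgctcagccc
Myl9, chr2:156775214-156775463 on the plus strand: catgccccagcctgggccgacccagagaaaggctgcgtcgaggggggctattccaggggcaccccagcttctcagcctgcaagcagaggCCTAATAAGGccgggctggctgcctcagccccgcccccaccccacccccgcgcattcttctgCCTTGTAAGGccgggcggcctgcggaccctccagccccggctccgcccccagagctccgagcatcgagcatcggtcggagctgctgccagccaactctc
Acta1, chr8:123894776-123895025 on the minus strand: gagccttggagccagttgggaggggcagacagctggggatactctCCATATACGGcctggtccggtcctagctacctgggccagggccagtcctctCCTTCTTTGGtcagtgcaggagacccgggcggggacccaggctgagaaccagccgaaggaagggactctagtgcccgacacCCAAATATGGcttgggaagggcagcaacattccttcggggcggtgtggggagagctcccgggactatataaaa
In Acta2 both matches, CCCTATATGG at 84 and CCTTGTTTGG at 34 bases before the start, were of the form with 1 C or G. Cnn2 had CCTTATAAGG at 56 bases. Myl9 had CCTAATAAGG at 161 bases and, with 1 G, CCTTGTAAGG at 99. Acta1 had CCAAATATGG at 73 bases, and CCATATACGG at 205 and CCTTCTTTGG at 154 in the form with 1 C or G. A match is a stretch of letters and not a shown binding site.

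Values are log2 of the scaled array signal plus 16, so 1 unit is close to a 2-fold difference. Background was set at 11.06 on this scale, the 95th percentile of 44 olfactory receptor probe sets, genes that these cells are not known to use. Where the dimmer group had a mean below background, a fold is given as "at least", with the dim arrays raised to the background. Where both means were below it no fold is given. Each gene is described by its brightest probe set, and the other probe sets follow. Results were also computed with the values as deposited, with arrays scaled to a common median and with quantile normalization, which with the scaling used here make 4 scalings. Of the 22 probe sets, 13 were above background in all 15 arrays and 4 in MEF arrays only. Levels are compared between groups and not between genes.

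All 10 genes were highest in MEF and fell in each tested line. The median log2 difference from MEF over the 10 genes was -5.44 in CL11, -4.38 in IP20D-3 and -4.72 in IP14D-101, while the medians over all genes lay at 0.07, 0.10 and 0.05. By probe set, 20 of 22 were lower in CL11 than in MEF (limma, adjusted p under 0.05; 21.3% of all probe sets). The same held for 21 of 22 in IP20D-3 (20.3% of all) and 21 of 22 in IP14D-101 (23.9% of all). These comparisons share the MEF arrays. In IP14D-1 the median difference from MEF was -3.31, and all 3 arrays lay below all MEF arrays for 21 of 22 probe sets, which was so for 24.8% of all probe sets. In bulk samples such as these, fewer cells of a type and less RNA per cell cannot be told apart.

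The size of the fall differed by gene. The enteric actin Actg2 was at least 220-fold lower in each tested line, and Cnn1 was at least 120-fold lower in CL11, at least 92.9-fold lower in IP14D-101 and 34.2-fold lower in IP20D-3 (adjusted p = 5.3e-12, 8.2e-11 and 1.1e-08). Acta2 was 108-fold lower in CL11, 64.4-fold lower in IP20D-3 and 44.0-fold lower in IP14D-101 (adjusted p = 3.4e-18, 1.5e-17 and 5.6e-17). Myl9 was 99.7-fold lower in CL11, 53.9-fold lower in IP14D-101 and 33.1-fold lower in IP20D-3 (adjusted p = 2.5e-16, 1.7e-15 and 9.9e-15). Tagln was 67.9-fold lower in CL11, 30.1-fold lower in IP14D-101 and 15.98-fold lower in IP20D-3 (adjusted p = 4.7e-18, 8.4e-17 and 1.2e-15). Acta1 was 19.1-fold to 27.7-fold lower, Cald1 15.7-fold to 22.8-fold, Tpm2 12.6-fold to 18.8-fold, Tpm1 7.81-fold to 10.6-fold and Cnn2 8.14-fold to 9.47-fold over the 3 tested lines. Cald1, Tpm1 and Cnn2 are genes that many non-muscle cells also use. With the values as deposited the folds of the fall in IP20D-3 were over 1.5 times as large in all 10 genes. On the log2 scale Tagln went from -4.00 to -4.64 and Acta2 from -6.01 to -6.64. The probe set 1447713_at of Tpm1 was not called in any of the 3, and 1433146_at of Cald1, just above background in MEF, was not called in CL11 (adjusted p = 0.052).

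**Figure D1:**
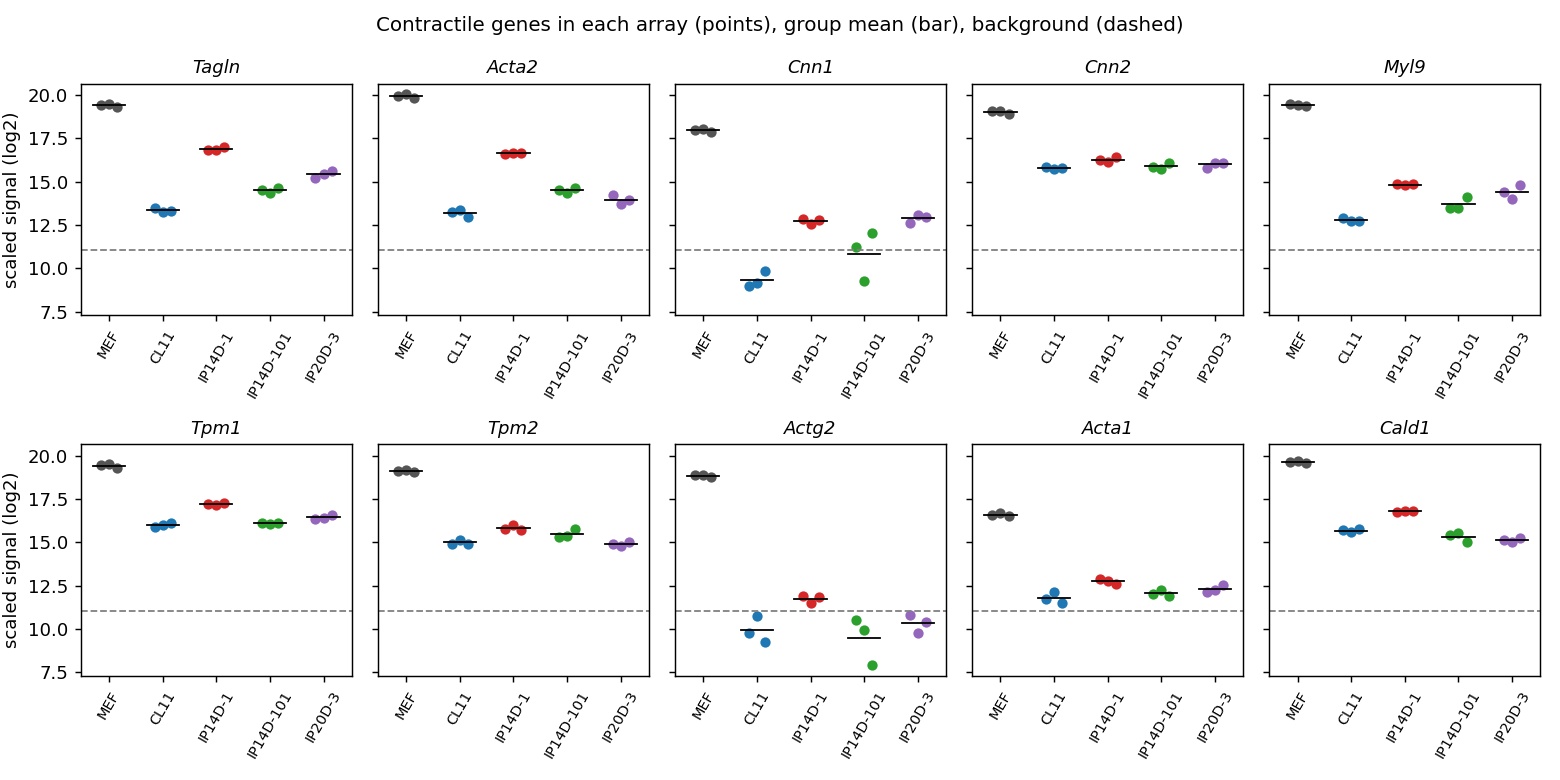
Each panel shows 1 gene, with the scaled log2 signal of each of the 15 arrays as a point, the mean of each group as a bar and the background of 11.06 as a dashed line. MEF was highest in all 10 panels, and IP14D-1 came next in 9 of them, with Cnn1 as the exception. The genes were picked because several stay raised in IP14D-1, so its rank follows in part from the choice.

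Tagln (transgelin, also called SM22 alpha), which binds and bundles actin filaments, gave 19.45, 19.51 and 19.33 in MEF and 13.51, 13.22 and 13.30 in CL11 on the log2 scale (probe set 1423505_at). It gave 16.84, 16.85 and 17.02 in IP14D-1, 15.19, 15.46 and 15.64 in IP20D-3, and 14.54, 14.35 and 14.67 in IP14D-101. No 2 of the 5 groups overlapped, and the order from high to low was MEF, IP14D-1, IP20D-3, IP14D-101, CL11. As a share of the MEF signal Tagln stood at 17.4% in IP14D-1, 6.26% in IP20D-3, 3.32% in IP14D-101 and 1.47% in CL11. Tagln was 4.25-fold higher in IP20D-3 than in CL11 (log2 difference 2.09, SE 0.11, adjusted p = 8.9e-10) and 2.25-fold higher in IP14D-101 than in CL11 (1.17, SE 0.11, adjusted p = 3.1e-06). The iPS lines also differed from each other, with IP20D-3 1.89-fold above IP14D-101 (adjusted p = 1.8e-05). The mean of IP14D-1 was 11.8-fold that of CL11.

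Acta2, the alpha-actin of smooth muscle, gave 19.97, 20.06 and 19.86 in MEF and 13.27, 13.38 and 12.98 in CL11 on the log2 scale (1416454_s_at). It gave 16.63, 16.67 and 16.65 in IP14D-1, 14.22, 13.70 and 13.94 in IP20D-3, and 14.54, 14.34 and 14.63 in IP14D-101. The groups again did not overlap, but IP14D-101 stood above IP20D-3, the reverse of Tagln. Acta2 was 2.45-fold higher in IP14D-101 than in CL11 (1.29, SE 0.12, adjusted p = 2.3e-06), 1.67-fold higher in IP20D-3 than in CL11 (0.74, adjusted p = 3.1e-04) and 1.46-fold lower in IP20D-3 than in IP14D-101 (adjusted p = 0.0037). CL11 held 0.929% of the MEF signal, and IP14D-1 held 10.1%, with a mean 10.8-fold that of CL11. The other Acta2 probe sets, 1444105_at and 1456658_at, were above background in MEF only, so they carry no order among the lines.

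Cnn1 (calponin 1), which binds actin and slows the myosin motor, gave 18.00, 18.07 and 17.85 in MEF and 8.99, 9.15 and 9.83 in CL11 on the log2 scale (1417917_at). It gave 12.83, 12.58 and 12.81 in IP14D-1, 12.61, 13.07 and 12.94 in IP20D-3, and 11.20, 9.26 and 12.04 in IP14D-101. All CL11 arrays were below background, IP14D-101 straddled it, and IP14D-1 and IP20D-3 were above it and overlapped each other. Cnn1 was at least 3.51-fold higher in IP20D-3 than in CL11 (log2 difference 3.55, SE 0.44, adjusted p = 1.8e-05) and at least 2.71-fold higher than in IP14D-101 (2.04, adjusted p = 0.0030). The latter difference was 1.25 without IP14D-101 replicate 2 (adjusted p = 0.0024) and 2.65 without IP14D-101 replicate 3 (adjusted p = 1.1e-04). The mean of IP20D-3 stood 0.14 above that of IP14D-1, a difference that turned to -0.41 with the values as deposited. The difference between IP14D-101 and CL11 (1.51, SE 0.44, adjusted p = 0.045) had both means below background and overlapping arrays. That call was lost without IP14D-101 replicate 1 (adjusted p = 0.13), without IP14D-101 replicate 3 (0.20), without CL11 replicate 1 (0.15) and without CL11 replicate 2 (0.14). It was also lost with the values as deposited (0.089), a pseudocount of 1000 (0.058), no variance trend (0.16) and these 2 groups fitted alone (0.35).

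Myl9, the regulatory light chain through which phosphorylation switches smooth muscle myosin on, gave 19.49, 19.45 and 19.39 in MEF and 12.92, 12.75 and 12.75 in CL11 on the log2 scale (1452670_at). It gave 14.85, 14.81 and 14.86 in IP14D-1, 14.39, 14.01 and 14.79 in IP20D-3, and 13.50, 13.45 and 14.12 in IP14D-101. All arrays of each iPS line lay above all CL11 arrays, and IP14D-101 and IP20D-3 overlapped. Myl9 was 3.01-fold higher in IP20D-3 than in CL11 (1.59, SE 0.17, adjusted p = 2.6e-06) and 1.85-fold higher in IP14D-101 than in CL11 (0.89, adjusted p = 0.0025). IP20D-3 exceeded IP14D-101 by 0.71 (adjusted p = 0.0057), a call lost when arrays were scaled to a common median (0.46, adjusted p = 0.13) or only these 2 groups were fitted (adjusted p = 0.064). The mean of IP14D-1 was 4.09-fold that of CL11 and 4.11% of that of MEF.

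Cnn2 (calponin 2), a calponin that many non-muscle cells also make, had the smallest difference from MEF of the 10 genes in CL11 (-3.24) and in IP14D-101 (-3.14). It gave 19.09, 19.06 and 18.94 in MEF, 15.85, 15.74 and 15.77 in CL11, 15.81, 16.10 and 16.11 in IP20D-3, and 15.84, 15.73 and 16.08 in IP14D-101 on the log2 scale (1450981_at). CL11 and both tested iPS lines overlapped. The difference from CL11 was 0.10 in IP14D-101 (95% interval -0.12 to 0.32, adjusted p = 0.66) and 0.22 in IP20D-3 (0.0015 to 0.44, adjusted p = 0.19), and both signs turned with the values as deposited. In IP14D-1 it gave 16.26, 16.13 and 16.44, above all CL11 arrays by a mean of 0.49.

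Tpm1 (tropomyosin 1) gave 19.45, 19.51 and 19.30 in MEF and 15.91, 16.01 and 16.12 in CL11 on the log2 scale (1423721_at). It gave 17.19, 17.15 and 17.29 in IP14D-1, 16.33, 16.43 and 16.61 in IP20D-3, and 16.11, 16.06 and 16.14 in IP14D-101. IP14D-101 overlapped CL11 (difference 0.09, adjusted p = 0.62), and the sign of that difference turned with the values as deposited. IP20D-3 lay 0.44 above CL11 (SE 0.08, adjusted p = 0.0010), a call lost with the values as deposited (0.22, adjusted p = 0.22) and with a common median (0.31, adjusted p = 0.14). IP20D-3 lay 0.35 above IP14D-101 (adjusted p = 0.0052), lost with the values as deposited (adjusted p = 0.090), a common median (0.66) and no variance trend (0.059). The other probe sets above background gave differences of IP20D-3 from CL11 of 0.53 (1423049_a_at, adjusted p = 5.6e-05) and 1.16 (1456623_at, adjusted p = 1.1e-04). The probe set 1456623_at was also higher in IP14D-101 than in CL11 (0.96, adjusted p = 0.0016), where 1423049_a_at (0.22, adjusted p = 0.075) and 1423721_at did not pass. The 4th probe set, 1447713_at, was above background in 1 MEF array only. Means of IP14D-1 were 2.29-fold, 2.35-fold and 3.13-fold those of CL11 for 1423721_at, 1423049_a_at and 1456623_at.

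Tpm2 (beta-tropomyosin) ran in another order than Tpm1. It gave 19.15, 19.18 and 19.09 in MEF and 14.94, 15.15 and 14.93 in CL11 on the log2 scale (1419738_a_at). It gave 15.77, 15.98 and 15.72 in IP14D-1, 14.92, 14.78 and 15.02 in IP20D-3, and 15.30, 15.38 and 15.77 in IP14D-101. IP20D-3 overlapped CL11 and was the lowest group by its mean, and IP14D-101 overlapped IP14D-1. Tpm2 was 1.49-fold lower in IP20D-3 than in IP14D-101 (-0.58, SE 0.11, adjusted p = 0.0013), and the probe set 1425028_a_at fell likewise (-0.52, adjusted p = 0.0033). Against CL11, IP14D-101 was 0.48 higher by 1419738_a_at (adjusted p = 0.013) and 0.65 higher by 1425028_a_at (adjusted p = 0.0014). The first of these calls was lost with the values as deposited (adjusted p = 0.17), no variance trend (0.098), these 2 groups fitted alone (0.069), without CL11 replicate 1 (0.057) and without CL11 replicate 3 (0.060). The second was also lost with the values as deposited (0.49, adjusted p = 0.070). IP20D-3 did not differ from CL11 by either probe set (-0.10, adjusted p = 0.66, and 0.13, adjusted p = 0.56, the latter turning sign with another scaling). The probe sets 1419739_at and 1449577_x_at had means near or below background in CL11, IP20D-3 and IP14D-101 and were not called between these lines. In IP14D-1 all 3 arrays were above background for both, with means of 11.73 and 12.37, and 1449577_x_at stood at least 2.48-fold over CL11 with no overlap.

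Actg2, the gamma-actin of enteric smooth muscle, gave 18.88, 18.89 and 18.76 in MEF on the log2 scale (1422340_a_at). It gave 9.78, 10.75 and 9.24 in CL11, 10.80, 9.77 and 10.40 in IP20D-3, and 10.53, 9.97 and 7.90 in IP14D-101, all below background. The fall from MEF was at least 220-fold in each of these lines (adjusted p = 2.1e-11 in CL11, 3.9e-11 in IP20D-3 and 9.5e-12 in IP14D-101). IP14D-1, at 11.90, 11.52 and 11.84, was the only line with all 3 arrays above background, at 0.735% of the MEF signal and at least 1.62-fold the level of CL11. Acta1, the alpha-actin of skeletal muscle, gave 16.59, 16.69 and 16.50 in MEF and 11.76, 12.15 and 11.49 in CL11 (1427735_a_at). It gave 12.89, 12.75 and 12.59 in IP14D-1, 12.16, 12.28 and 12.56 in IP20D-3, and 12.02, 12.27 and 11.90 in IP14D-101, above background in all 15 arrays. Acta1 in IP20D-3 lay 0.53 above CL11 (adjusted p = 0.055) and passed without CL11 replicate 2 (0.71, adjusted p = 0.017) and with dim probe sets filtered out (adjusted p = 0.040), while IP14D-101 lay 0.27 above CL11 with overlapping arrays (adjusted p = 0.46). The coding sequences of the actins are much alike, and how far their probe sets share signal was not tested.

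Cald1 (caldesmon), which binds actin, tropomyosin and calmodulin and restrains the myosin motor, went the other way in the tested iPS lines. It gave 19.64, 19.71 and 19.60 in MEF and 15.70, 15.58 and 15.75 in CL11 on the log2 scale (1424769_s_at). It gave 16.78, 16.84 and 16.82 in IP14D-1, 15.14, 15.03 and 15.25 in IP20D-3, and 15.43, 15.53 and 15.03 in IP14D-101. All arrays of IP14D-101 and IP20D-3 lay below all CL11 arrays, and those of IP14D-1 lay above them. Cald1 was 1.45-fold lower in IP20D-3 than in CL11 (-0.54, SE 0.10, adjusted p = 0.0011). The difference of IP14D-101 from CL11 by the same probe set was -0.35 (adjusted p = 0.0454), a call lost with a common median (-0.23, adjusted p = 0.26), with the replicate block (0.063), no variance trend (0.19), these 2 groups fitted alone (0.17) and without any 1 of CL11 replicate 1 (0.12), CL11 replicate 2 (0.062), CL11 replicate 3 (0.15) or IP14D-101 replicate 3 (0.17). Between IP20D-3 and IP14D-101 Cald1 differed by -0.19 (adjusted p = 0.23), and passed with a common median (-0.44, adjusted p = 0.0077) and without IP14D-101 replicate 3 (-0.34, adjusted p = 0.0065). The probe set 1424770_at gave the larger fall, -0.74 in IP14D-101 (adjusted p = 0.0016) and -0.67 in IP20D-3 (adjusted p = 0.0016), and kept both calls under all 3 other scalings. The probe set 1424768_at gave -0.37 in IP14D-101 (adjusted p = 0.025), a call lost with a common median (-0.25, adjusted p = 0.13), and -0.46 in IP20D-3 (adjusted p = 0.0029). The 1433147_at signal was at least 1.58-fold lower in IP14D-101 (adjusted p = 0.026) and lay 0.87 below CL11 in IP20D-3 without passing (adjusted p = 0.057). The latter passed under the other 3 scalings, with the values as deposited (-1.08, adjusted p = 0.021), with a common median (-0.995, adjusted p = 0.020) and with quantile normalization (-0.98, adjusted p = 0.019). The probe set 1433146_at was below background outside MEF. Apart from 1433146_at, which carries no order among the lines, all Cald1 probe sets had lower means in both lines than in CL11 under each of the 4 scalings.

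Counted over the 22 probe sets, 7 were higher and 4 lower in IP14D-101 than in CL11, where 3.31% of all probe sets were called higher and 3.86% lower. With the values as deposited the split was 4 higher and 4 lower, and with a common median 7 and 2. The count of 11 fell to 6 without CL11 replicate 1, to 7 without CL11 replicate 2 and to 7 without IP14D-101 replicate 3. In IP20D-3 against CL11, 7 were higher and 3 lower (7.61% and 6.87% of all probe sets), and 6 and 4 both with the values as deposited and with a common median. In IP20D-3 against IP14D-101, 5 were higher and 3 lower (10.5% and 7.67% of all probe sets). That split turned to 2 higher and 5 lower with a common median, and was 3 and 3 with the values as deposited. The median over the 10 genes was 0.37 for IP14D-101 and 0.49 for IP20D-3 against CL11, where the medians over all genes were 0.004 and 0.02. Both comparisons share the CL11 arrays. By gene, IP14D-101 had Tagln, Acta2, Cnn1, Myl9 and Tpm2 called higher, Cald1 called lower and 4 not called (5.17% and 4.56% of all genes). The calls of Cnn1, Tpm2 and Cald1 there were each lost under several alternatives, and Cnn1 had both means below background. IP20D-3 had Tagln, Acta2, Cnn1, Myl9 and Tpm1 called higher, Cald1 called lower and 4 not called (9.47% and 10.1% of all genes). Its Tpm1 call was lost with the values as deposited and with a common median.

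**Figure D2:**
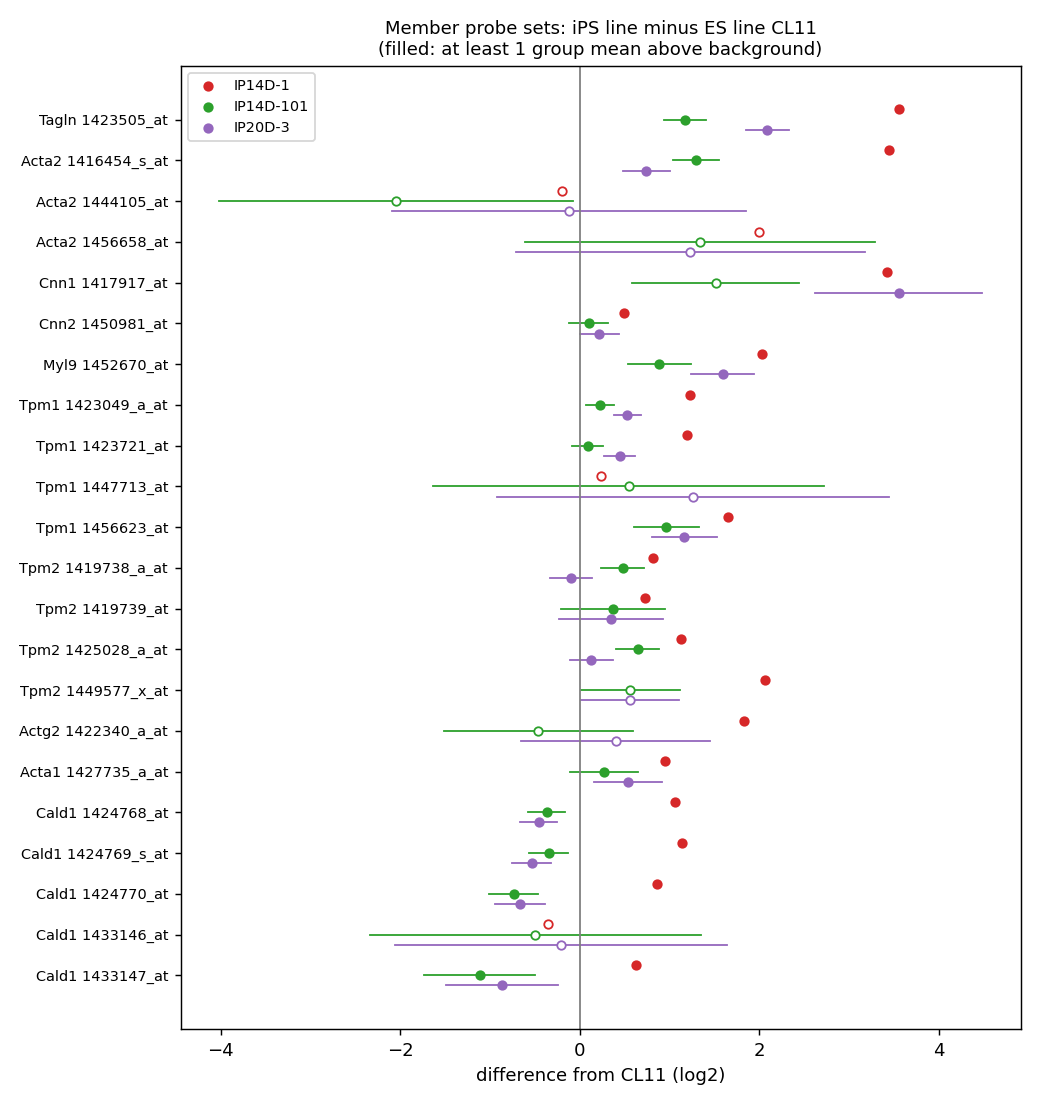
Points give the difference of each iPS line from CL11 on the log2 scale for each of the 22 probe sets, with 95% intervals from the fit for IP14D-101 and IP20D-3, and none for IP14D-1, from which the genes were picked. Filled points had at least 1 of the 2 group means above background. Tagln lay at 3.56 in IP14D-1, 2.09 in IP20D-3 and 1.17 in IP14D-101, and the filled Cald1 points of IP20D-3 and IP14D-101 lay left of 0.

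In IP14D-1 all 3 arrays lay above all CL11 arrays for 18 of the 22 probe sets (21.4% of all probe sets), a count that the choice of genes fixes. The differences of the 10 genes ran from 0.49 (Cnn2) to 3.56 (Tagln), with a median of 1.51 against 0.03 over all genes. Against IP14D-1, all 3 arrays of IP14D-101 were lower for 16 probe sets (22.8% of all probe sets) and all 3 arrays of IP20D-3 for 17 (13.9%). IP14D-1 stood between MEF and every other line in 9 of the 10 genes by their means. This rank and the counts of 16 and 17 also follow in part from the choice of genes. The Tpm2 difference of IP14D-101 from IP14D-1, -0.34, was within the overlap of the arrays and turned to 0.02 with a common median. CL11 had the lowest mean in 7 genes, IP20D-3 in 2 (Tpm2 and Cald1) and IP14D-101 in 1 (Actg2). A different scaling moves all differences of IP14D-1 from CL11 together: the median over all probe sets was 0.12 as scaled here, 0.44 with the values as deposited and -0.12 with a common median.

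Fibroblast markers were read beside these genes because MEF and the feeder cells are fibroblasts. Of the 15 markers, 15 had a mean above background in MEF, 9 in IP14D-1, 5 in CL11, 5 in IP20D-3 and 6 in IP14D-101. The summed signal of the 15 was 5665457 to 6286524 in MEF, 230585 to 246326 in IP14D-1, 196705 to 210230 in CL11, 259978 to 319301 in IP20D-3 and 226468 to 248877 in IP14D-101. As a share of MEF these sums were 3.98% in IP14D-1, 3.39% in CL11, 4.84% in IP20D-3 and 4.02% in IP14D-101. The median share over the 15 markers ranked the lines otherwise, at 1.62%, 0.991%, 1.12% and 0.582% in the same order. The sums of the 10 contractile genes were 11.5%, 4.07%, 5.41% and 4.86% of MEF, again in that order. The contractile genes were picked because several stay raised in IP14D-1, so their larger share in that line follows in part from the choice. In IP14D-1, Pdgfrb, Pdgfra, Lum, Dcn, Fap and Prrx1 were below background. Of the 15 markers, 6 were higher in IP14D-1 than in CL11 and 1, Pdgfra, was lower (10.7% and 11.5% of all genes). The collagen genes Col1a1 (at least 2.33-fold, adjusted p = 1.4e-04) and Col3a1 (at least 3.16-fold, adjusted p = 1.6e-06) and the matrix gene Postn (at least 1.36-fold, adjusted p = 9.4e-04) were among the higher ones. In IP14D-1 the 10 contractile genes ranged from 0.735% (Actg2) to 21.6% (Tpm1) of MEF, with Tagln at 17.4% and Acta2 at 10.1%. Col1a1, Col3a1 and Postn stood at 0.568%, 0.731% and 0.309% of MEF in that line. Other markers kept more, Fn1 (fibronectin) 24.9% and Twist1 11.1%, and the 15 ranged from 0.309% to 24.9%. The fibroblast surface marker Thy1 was at 0.991% of MEF in CL11 and 0.944% in IP14D-1 (difference -0.07, adjusted p = 0.86). None of the 15 differed between IP14D-101 and CL11 by limma, with 3 higher and 2 lower at an unadjusted p under 0.05. In IP20D-3 Fn1 was higher than in CL11 (0.63, adjusted p = 7.8e-05) and Pdgfra and Pdgfrb were lower. The part of fibroblast RNA in the levels of the contractile genes was not tested.

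**Figure D3:**
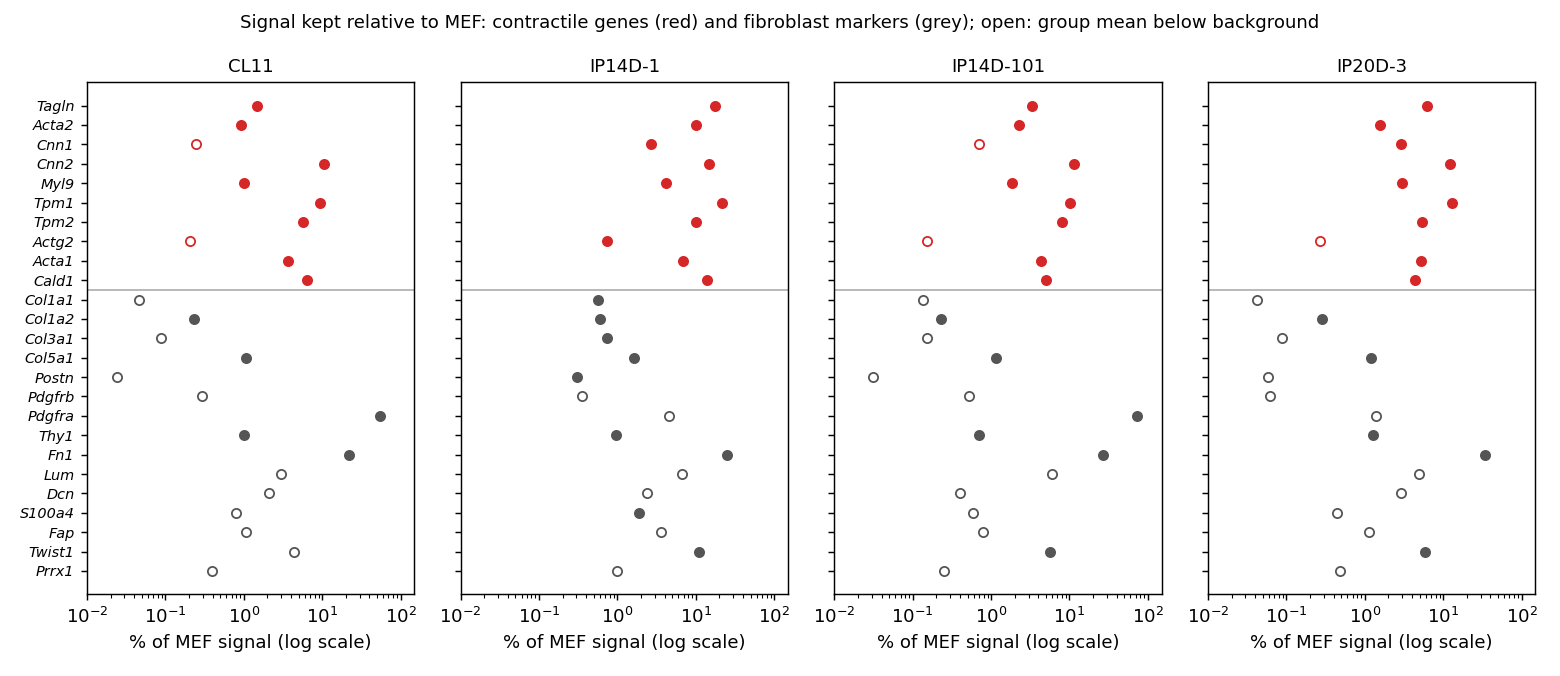
Each panel shows 1 line, with the signal of the 10 contractile genes (red) and 15 fibroblast markers (grey) as a percentage of their MEF signal on a log axis, and open points where the mean of the line was below background. In IP14D-1 the contractile genes had a median of 10.1% and the markers 1.62%, and in CL11 the medians were 2.54% and 0.99%. The contractile genes were picked because several stay raised in IP14D-1, so their larger share in that line follows in part from the choice.

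Of 8 markers of mature smooth muscle, 7 were lower and 1, Ppp1r14a, higher than in MEF in each of the 4 lines. Of all genes, 23.3% were lower in CL11 than in MEF. By probe set the lower share was 20.3% in IP20D-3 and 23.9% in IP14D-101. Shares for IP14D-1 and for higher calls are not given here. Against CL11, Des was called lower in IP14D-1 and IP20D-3 (11.5% and 10.1% of all genes). The other 7 were not called in any iPS line by limma, nor at an unadjusted p under 0.05. Of the 7, Myh11 (the smooth muscle myosin heavy chain), Lmod1, Myocd, Synpo2 and Itga8 were above background in MEF and below it in all 4 lines. Of 10 markers of striated muscle, 9 were below background in MEF and 7 to 8 in each line. All 6 pluripotency markers were above background in all 4 lines and below it in MEF, and Pou5f1, a core gene of the pluripotent state, had means of 18.93 in CL11, 18.86 in IP20D-3, 18.87 in IP14D-101 and 18.74 in IP14D-1 on the log2 scale. The ratio of 3' to 5' signal of the actin control probe sets, a sign of RNA integrity, was 1.32 to 1.39 in IP14D-1, and 1.14 to 1.17 in MEF, 1.19 to 1.22 in CL11, 1.25 to 1.30 in IP20D-3 and 1.16 to 1.29 in IP14D-101. The part of this ratio in the differences was not tested.

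A wider list of 35 other genes of the contractile apparatus and its anchors moved less between lines than the 10 genes. Those 10 were picked because several stay raised in IP14D-1, so the contrast in that line follows in part from the choice. Against MEF, 30 of the 35 were lower and 2 higher in CL11 (23.3% of all genes were lower), and the median share of the MEF signal was 24.5% in IP14D-1, 22.3% in CL11, and 22.8% in both IP20D-3 and IP14D-101. In IP14D-1 against CL11, 12 were higher and 4 lower (10.7% and 11.5% of all genes), but 2 higher and 5 lower with a common median and 18 higher and 0 lower with the values as deposited. Without the variance trend the 16 calls fell to 9, and without IP14D-1 replicate 2 they fell to 10. Tgfb1i1 (Hic-5, a focal adhesion protein; at least 3.24-fold, adjusted p = 1.2e-06) and Fhl1 (a LIM domain protein of muscle; 1.25, adjusted p = 2.5e-08) were higher under all 4 scalings. The intermediate filament gene Des (-0.84, adjusted p = 0.017) was lower, and that call was lost with the values as deposited, while Fhl2 (0.71, adjusted p = 0.021) kept its call only there and as scaled here. In IP14D-101 against CL11, Myh10 (0.63, adjusted p = 5.8e-05) and Csrp2 (0.61, adjusted p = 1.1e-04) were higher and Csrp1 (-0.70, adjusted p = 9.5e-05) was lower (5.17% and 4.56% of all genes), a split of 1 and 3 with the values as deposited. The count of 3 rose to 7 without IP14D-101 replicate 3.

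In IP20D-3 against CL11, 6 of the 35 were higher and 6 lower (9.47% and 10.1% of all genes), and 2 and 6 both with the values as deposited and with a common median. Fhl1 (1.39, adjusted p = 5.1e-09) and Tgfb1i1 (at least 2.11-fold, adjusted p = 1.0e-04) were higher, and Des (-0.92, adjusted p = 0.011) and Tagln2 (-0.69, adjusted p = 2.6e-04), a broadly expressed relative of Tagln, were lower, all 4 under each of the 4 scalings. In IP20D-3 against IP14D-101, 5 were higher and 6 lower (10.3% and 11.7% of all genes), and 1 and 10 with a common median. Fhl1 differed most among genes above background there (1.32, adjusted p = 1.6e-08).

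Of the 25 genes in the list of regulators, 24 were measured. Srf had means of 13.91 in MEF, 13.79 in IP14D-1, 14.23 in CL11, 14.42 in IP20D-3 and 14.20 in IP14D-101 on the log2 scale, and none of the 3 iPS lines passed against CL11 (adjusted p = 0.054 in IP14D-1, 0.49 in IP20D-3 and 0.96 in IP14D-101). Its coactivators Mrtfa and Mrtfb were lower in CL11 than in MEF by 1.03 (adjusted p = 8.05e-08) and 0.53 (adjusted p = 0.0022). Among the lines Mrtfa means lay between 14.32 and 14.43 and Mrtfb means between 14.16 and 14.42, with no iPS line called against CL11. Myocd, the coactivator of mature smooth muscle, was below background in all 4 lines. Klf4, a repressor of smooth muscle genes and a pluripotency factor, was 2.15 higher in CL11 than in MEF (adjusted p = 1.9e-12), and 0.77 lower in IP20D-3 than in CL11 (adjusted p = 3.4e-05), while IP14D-1 and IP14D-101 lay within 0.08 of CL11.

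In IP14D-1 against CL11, 4 regulators were higher and 6 lower (10.7% and 11.5% of all genes), and 8 and 0 with the values as deposited or 3 and 8 with a common median. Tgfb2, a ligand of the transforming growth factor beta pathway that induces contractile genes, was above background in IP14D-1 (11.98) and MEF (15.62) only, at least 1.89-fold the level of CL11 (adjusted p = 1.8e-05). Tgfbr1, its type I receptor (1.04, adjusted p = 1.2e-06), and Wwtr1 (TAZ, a coactivator of TEAD factors; 0.77, adjusted p = 7.4e-05) were also higher, all 3 under each of the 4 scalings. Pdgfb (0.86, adjusted p = 0.0086), a growth factor, lost its call with a common median. The lower ones were Rhoc (-0.56, adjusted p = 0.0011), Tgfb1 (-0.55, adjusted p = 0.021), Foxo4 (-0.52, adjusted p = 0.022), Smad3, Smad2 and Rhoa, none of them called with the values as deposited. In IP14D-101 against CL11, 6 were higher and none lower by limma (5.17% and 4.56% of all genes), with 7 and 3 at an unadjusted p under 0.05, and the count fell to 1 with the values as deposited. The largest among genes above background were Pdgfb (0.86, adjusted p = 0.019), Notch3 (0.60, adjusted p = 2.0e-04) and Wwtr1 (0.50, adjusted p = 0.0076), each not called with the values as deposited. In IP20D-3, 3 were higher and 8 lower (9.47% and 10.1% of all genes), and 1 and 8 with a common median or 1 and 9 with the values as deposited. Tgfbr1 was higher (0.73, adjusted p = 5.5e-05), and the receptors Tgfbr3 (at least 1.20-fold, adjusted p = 0.0060) and Tgfbr2 (at least 1.27-fold, adjusted p = 0.0035) were lower, under all 4 scalings.

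**Figure D4:**
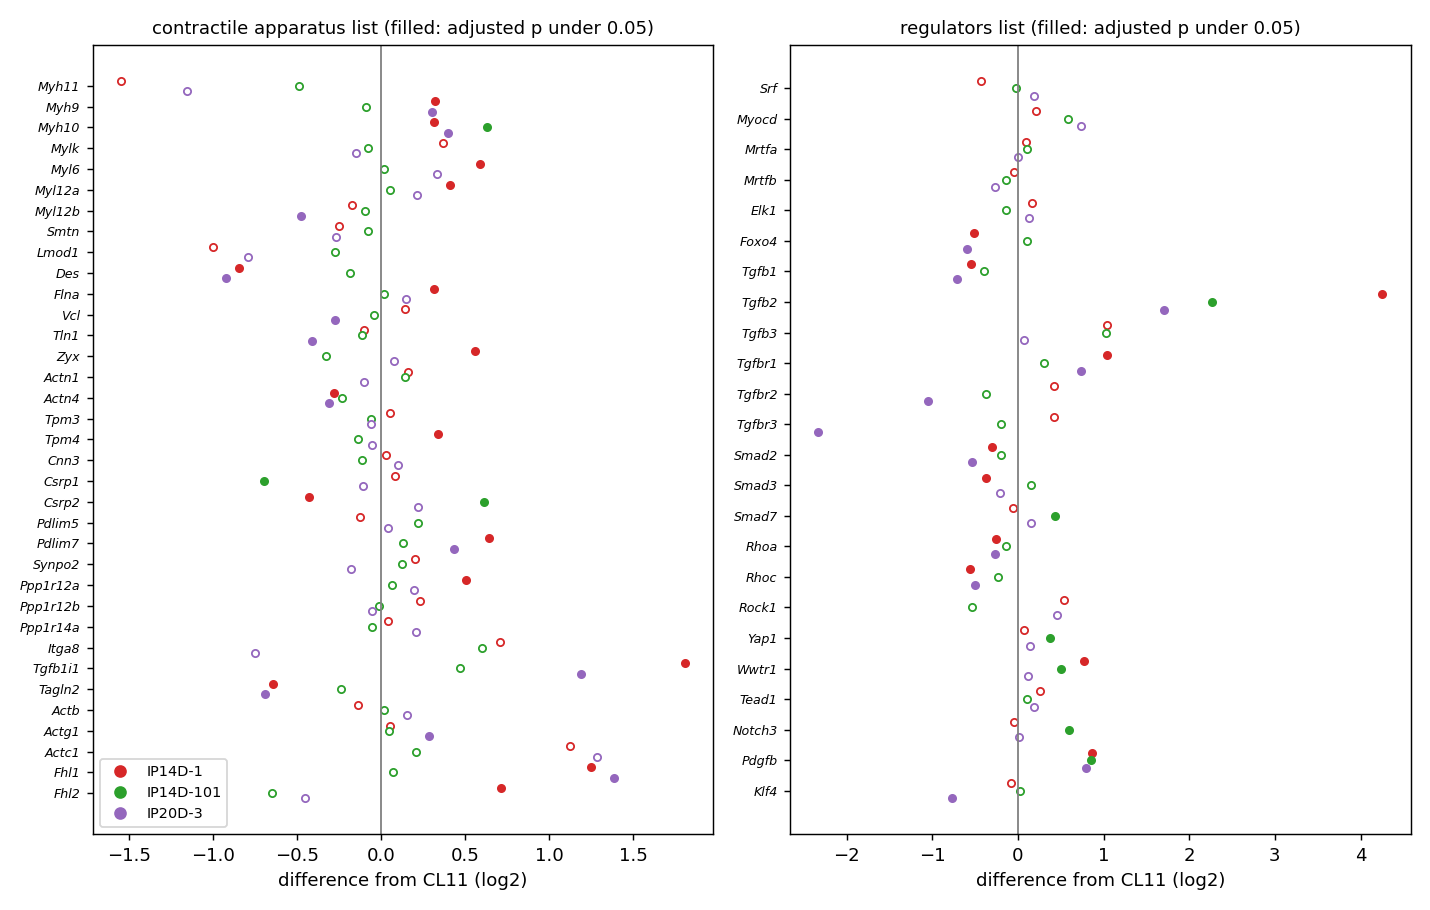
Points give the difference of each iPS line from CL11 on the log2 scale for the 35 contractile apparatus genes (left) and 24 measured regulators (right), filled where the adjusted p was under 0.05 (limma). In IP14D-1 the filled points numbered 12 higher and 4 lower on the left, a split that turned to 2 and 5 with a common median, and Tgfb2 lay farthest to the right at 4.25 from a CL11 level below background.

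The genes whose levels ran most like those of Tagln over the 12 arrays of CL11 and the iPS lines were Adgrl2 (Pearson r = 0.981), Cachd1 (0.979), Gja1 (0.975), Wls (0.974) and Igfbp3 (0.973), among 12352 candidate genes. Those most like Acta2 were Ccn2 (0.981), Thbs1 (0.977), F3 (0.959), Nsmaf (0.958) and Ywhab (0.957). Between the members, Tagln correlated at 0.949 with Myl9 (rank 30 among the candidates), 0.944 with Tpm1 (rank 38) and 0.884 with Acta2 (rank 174). Next came Acta1 at 0.870 (rank 239), Cnn2 at 0.863 (rank 265) and Cnn1 at 0.847 (rank 331). The lowest were Actg2 at 0.631 (rank 1783), Cald1 at 0.600 (rank 1987) and Tpm2 at 0.598 (rank 1998). These correlations describe 4 lines with 3 arrays each that share a line, and IP14D-1 is high in all of them. The mean levels of Adgrl2, Cachd1 and Igfbp3 in IP14D-1, at 16.15, 14.82 and 14.98, lay above those in MEF (15.80, 14.34 and 14.85), where Tagln lay 2.53 below, and the mean of Gja1 was higher in all 4 lines than in MEF.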

How the data were processed

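Total RNA of 15 samples was labelled as biotin cRNA and hybridised to Affymetrix arrays. The deposited values are probe set intensity values on a linear scale, made by the authors with Affymetrix Expression Console and its MAS5 method, per the submitters' processing notes, with versions not given in the sources used here. After 64 control probe sets were left out, 45037 were kept. The trimmed mean, with 2% left out at each end, was 11142 in the dimmest array and 20356 in the brightest, so all arrays were scaled to a common value of it. Differences were tested on log2(signal + 16) with limma 3.58.1 in R 4.3.3, with 1 mean per group over all 15 arrays, a variance trend and Benjamini-Hochberg adjustment over all probe sets, called at 0.05. The number of arrays limits the precision.

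Gene symbols come from the platform annotation, which named 1 gene for 34945 probe sets, several for 932 and none for 9160. The brightest probe set by its mean over all arrays stood for each gene. The text names all 10 genes, in the wider lists up to 4 called genes with the largest changes plus Srf, Myocd, Mrtfa, Mrtfb, Myh11, Klf4, Col1a1, Col3a1, Postn, Pdgfrb, Thy1 and Pou5f1, and the 5 genes most correlated with Tagln and with Acta2. Marker genes of a list that lay below background, and the receptors named beside Tgfb2, the markers Fn1, Twist1, Ppp1r14a and Des, and the regulators called lower in IP14D-1 were named after their values were seen. The genes and lists were chosen with earlier results of these data known. Alternatives were the deposited scale, median scaling, quantile normalization, pseudocounts of 64 and 1000, a filter on dim probe sets, a replicate block, no trend, fits of the compared groups only and leaving out each array. Same-numbered arrays of different groups did not deviate together (correlations -0.07 to 0.06 over 30 pairs), so they were not taken as pairs.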

Additional observations from a re-analysis of the deposited data

Results flagged for a closer look

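For 6 of the 10 genes the change from MEF differed between the iPS lines IP20D-3 and IP14D-101 by a test of the difference itself (limma, adjusted p under 0.05 over all probe sets). Since both changes are taken from the same MEF arrays, each value is also the difference between the lines. On the log2 scale, the value of IP20D-3 minus that of IP14D-101 was 2.04 for Cnn1, 0.92 for Tagln, 0.71 for Myl9 and 0.35 for Tpm1, and -0.55 for Acta2 and -0.58 for Tpm2. So 4 genes were higher and 2 lower, where 10.3% of all genes were called higher and 11.7% lower. The mean of Cnn1 in IP14D-101 was below background, so its difference depends on values there, and leaving out 1 array gave 1.25 to 2.65. The calls of Myl9 and Tpm1 did not hold under every alternative. The lines differ in genetic background, so line and background cannot be told apart. No group of 3 arrays was screened for outlying arrays, since the rule needs 4.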

How the results depend on the processing

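Of 900 single-gene results with a test under an alternative, 868 kept their side of the threshold, 28 lost the call and 4 gained it. The 900 include the differences from MEF, where every gene had an adjusted p of 1.1e-08 or less as scaled here (limma). The 868 therefore says less about the calls between lines. Where either setting made a call, 0 changed sign, but the 868 include the 5 turned signs named next. Signs turned in 5 that were called under neither setting: Tpm1 (-0.06) and Cnn2 (-0.05) in IP14D-101 minus CL11 and Cnn2 in IP20D-3 minus CL11 (-0.001) with the values as deposited, Cnn2 in IP20D-3 minus IP14D-101 with a common median (-0.13), and Actg2 in IP14D-101 minus CL11 without IP14D-101 replicate 3 (0.32). Of the untested ones, 550 moved by less than the replicate spread, 48 moved by more and 2 reversed: Cnn1 in IP20D-3 minus IP14D-1 turned to -0.41 with the values as deposited, and Tpm2 in IP14D-101 minus IP14D-1 to 0.019 with a common median. The replicate block is no pairing here, and with it Cald1 in IP14D-101 minus CL11 kept -0.35 and lost its call (adjusted p = 0.063), while no other single-gene call changed and the 11 member probe sets called there became 10.

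With the values as deposited the median of the 10 genes was -3.40 for IP14D-1 minus MEF, 1.84 for IP14D-1 minus CL11, -1.80 for IP14D-101 minus IP14D-1 and -1.38 for IP20D-3 minus IP14D-1, where 26 contractile apparatus genes and 12855 probe sets were called. All 26 of these genes were lower in IP20D-3, where the scaling used here gave 1 higher and 7 lower. With a common median it was 1.27 for IP14D-1 minus CL11 (7 contractile genes called) and -0.95 for IP14D-101 minus IP14D-1, and 2 contractile genes were called for IP20D-3 minus IP14D-1. With quantile normalization it was -3.40 for IP14D-1 minus MEF, and 5 contractile genes were called for IP14D-101 minus CL11. A pseudocount of 1000 gave 1.17 for IP14D-1 minus CL11, and the filter gave 6 contractile genes for IP14D-101 minus CL11. With no trend, contractile calls were 9 for IP14D-1 minus CL11, 5 for IP20D-3 minus CL11, 11 for IP14D-101 minus IP14D-1, 2 for IP20D-3 minus IP14D-1 and 7 for IP20D-3 minus IP14D-101, member probe sets called for IP14D-101 minus CL11 were 6, and all probe sets called were 1704 for IP14D-101 minus CL11 and 1038 for IP20D-3 minus IP14D-1. With the compared groups only, IP14D-101 minus CL11 gave 6 member probe sets and 1947 probe sets in all, and IP20D-3 minus IP14D-101 gave 6 contractile genes. The cause of these shifts was not tested.

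Leaving out 1 array gave 6 to 11 member probe sets, 3 to 7 contractile genes and 2016 to 3499 probe sets for IP14D-101 minus CL11, and medians of 1.37 to 1.601 for IP14D-1 minus CL11 (10 to 14 contractile genes) and -1.35 to -1.10 for IP14D-101 minus IP14D-1. For IP20D-3 minus IP14D-1 it gave 4 to 6 contractile genes, where all arrays gave 1 higher and 7 lower, and 1386 to 1931 probe sets. Signal near background limits Cnn1 and Actg2 in the lines.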
